A study of Mus musculus with 16 samples.

Results

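The genes described here are 9 costimulatory receptors and tumour necrosis factor (TNF) family ligands that CD4+ T cells can express. They are the receptors Tnfrsf9 (4-1BB), Tnfrsf4 (OX40), Tnfrsf18 (GITR), Cd27 and Cd28, and the ligands Cd40lg (CD40 ligand), Tnfsf8 (CD30 ligand), Tnfsf11 (RANKL) and Tnfsf14 (LIGHT). They were chosen by symbol, and each was read from its probe set with the highest mean log2(intensity + 1) over all 16 arrays. All 9 were on the array, out of 18193 genes measured.

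A T cell that meets its peptide on a dendritic cell receives a second signal through costimulatory receptors. CD28 gives that signal on naive T cells, where it binds CD80 and CD86. The TNF receptor family members 4-1BB, OX40, GITR and CD27 act at and after priming, bind TRAF adaptor proteins and switch on NF-kB, which sustains survival and division. In the other direction, T cells carry TNF family ligands: CD40 ligand binds CD40 on dendritic cells and B cells, RANKL binds RANK on dendritic cells, and LIGHT binds HVEM and the lymphotoxin beta receptor.

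RNA came from AND T cell receptor transgenic CD4+ T cells of the B10.BR background, which carry the congenic marker CD90.1 and see a moth cytochrome c peptide. Cells from AND lymph nodes were injected into recipients aged 6 to 8 weeks, and CD4+CD90.1+ cells were sorted 60 hours later, mostly labelled as from subcutaneous lymph nodes. Recipients of the antigen groups were Ii-rTA+, TIM+, so that doxycycline switched the peptide on. They received doxycycline from the day before the transfer until its day (transient antigen) or until day 3 (persistent antigen). Recipients of the groups without antigen were Ii-rTA-, TIM+ and lacked the transactivator. Their titles say that they had no doxycycline, whereas the treatment notes of 3 of these 5 samples give it from the day before the transfer to day 3, so genotype and perhaps doxycycline differ along with antigen. On the day before the transfer each recipient received FGK45.5, an antibody that stimulates CD40 and is called anti-CD40 here, or PBS. There were 2 arrays without antigen with anti-CD40, 3 without antigen with PBS, 2 with transient antigen and anti-CD40, 3 with transient antigen and PBS, 3 with persistent antigen and anti-CD40 and 3 with persistent antigen and PBS. The groups of 2 hold replicates 1 and 2, and the labels do not say whether replicates were separate animals, so the p-values describe only how far these arrays spread.

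Arrays with the same replicate number deviated together from their group means, at a correlation of 0.48 to 0.81 over 36 pairs. The Y-linked gene Eif2s3y read 8.86 to 9.93 on the log2(intensity + 1) scale on the 6 arrays of replicate 1, against 2.61 to 3.09 on the 6 of replicate 2 and 2.63 to 2.85 on the 4 of replicate 3. By this gene the RNA of replicate 1 differs from that of the other numbers. Each result below is therefore given from a model of group means and, where this changes it, also with replicate number added as a block. By the runs of array numbers in the labels, replicate 2 falls in run 3 without antigen and in run 4 with transient or persistent antigen. In replicate 2 antigen against no antigen therefore cannot be told apart from the run, and the block by number does not remove this. All 8 measured T cell markers lay above the median probe set (4.37) on all 16 arrays. Of the markers of other cells, 1 of 5 B cell genes (Ms4a1), 4 of 8 dendritic cell and macrophage genes (Csf1r, Lyz2, H2-Aa and H2-Ab1) and 2 of 4 NK and CD8 T cell genes (Cd8a and Klrd1) did so too. The B cell genes Cd79a and Pax5, the dendritic cell gene Xcr1, the CD8 gene Cd8b1 and the NK gene Ncr1 lay above it on 0 arrays. In the antigen comparisons with PBS and in anti-CD40 against PBS, 0 genes of these 3 lists passed in either model. Foxp3, which defines regulatory T cells, a cell type that carries GITR, OX40 and 4-1BB, read 3.03 to 4.39 and lay above it on 1 array.

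Start sites are shown for Tnfrsf9, whose RNA differed between groups in both models, and for Tnfrsf4 and Tnfrsf18, which are neighbours and were called in different comparisons. Each run gives 250 bases before to 50 bases after a start site from RefSeq, on the plus strand of mouse chromosome 4 in build GRCm38.p6. Capitals mark matches, on either strand, to the NF-kB consensus or to the AP-1 motif TGANTCA.
Tnfrsf9, first start site, chr4:150919905-150920204: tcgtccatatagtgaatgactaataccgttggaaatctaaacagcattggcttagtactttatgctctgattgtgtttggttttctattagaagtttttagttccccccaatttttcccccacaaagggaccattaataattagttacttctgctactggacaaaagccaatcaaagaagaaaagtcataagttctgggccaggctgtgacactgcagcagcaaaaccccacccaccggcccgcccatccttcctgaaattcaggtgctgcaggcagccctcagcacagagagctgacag
Tnfrsf9, second start site, chr4:150927749-150928048: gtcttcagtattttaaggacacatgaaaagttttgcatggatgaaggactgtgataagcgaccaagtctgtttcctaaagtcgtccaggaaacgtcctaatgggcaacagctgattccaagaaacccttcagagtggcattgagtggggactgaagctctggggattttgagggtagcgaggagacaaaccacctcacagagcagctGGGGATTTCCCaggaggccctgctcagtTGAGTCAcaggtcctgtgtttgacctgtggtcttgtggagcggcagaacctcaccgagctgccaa
Tnfrsf4, chr4:156013445-156013744: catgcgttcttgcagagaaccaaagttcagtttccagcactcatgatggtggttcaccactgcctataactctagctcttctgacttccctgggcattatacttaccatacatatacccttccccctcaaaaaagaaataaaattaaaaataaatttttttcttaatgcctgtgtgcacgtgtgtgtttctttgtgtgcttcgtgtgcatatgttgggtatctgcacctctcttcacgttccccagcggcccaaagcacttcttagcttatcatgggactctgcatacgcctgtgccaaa
Tnfrsf18, chr4:156026072-156026371: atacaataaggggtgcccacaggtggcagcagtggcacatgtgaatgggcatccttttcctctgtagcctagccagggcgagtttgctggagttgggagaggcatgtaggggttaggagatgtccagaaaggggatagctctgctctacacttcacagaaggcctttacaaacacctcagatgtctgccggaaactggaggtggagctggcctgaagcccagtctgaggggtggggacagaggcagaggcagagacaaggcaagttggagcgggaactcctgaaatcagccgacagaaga

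The Tnfrsf9 start sites lie 7844 bases apart, and the second one held every match in these 4 runs. There the NF-kB consensus matched at 2 overlapping places, bases −43 to −34 and −42 to −33 from the start site, and AP-1 matched once, at −15 to −9. RefSeq promoters were found for 7 of the 9 genes (8 sequences). Of the others, the one of Tnfsf14 held 1 AP-1 match (−160 to −154) and those of Cd27, Tnfsf8 and Tnfsf11 held none. Among 32851 mouse promoters of the same length 4.51% held the NF-kB consensus and 7.81% the AP-1 motif. The whole genes are placed on the same build. Tnfrsf9 lies at chr4:150920155-150946104, Tnfrsf4 at chr4:156013595-156016613 and Tnfrsf18 at chr4:156026322-156028894, with 9708 bases between the end of Tnfrsf4 and the start of Tnfrsf18. Tnfsf8 is on the same chromosome at chr4:63831202-63861508. Cd27 lies at chr6:125232620-125237136, Cd28 at chr1:60746388-60773359, Cd40lg at chrX:57212143-57224042, Tnfsf11 at chr14:78277446-78308043 and Tnfsf14 at chr17:57189474-57194181.

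Of the 9 genes, 6 passed the test in at least 1 comparison and 1 model. No share over all genes was computed for this pooled count. Single comparisons with the block called up to 16.7% of all genes, so the count alone does not set these genes apart. Tnfrsf9 fell with transient and with persistent antigen under PBS, and both models called this. With PBS and the replicate block, Tnfrsf18 fell in persistent against no antigen, Tnfsf14 in persistent against transient antigen and Tnfsf11 in both. Also under the block, Cd27 fell and Tnfrsf4 rose with anti-CD40 against PBS during transient antigen. Cd28, Cd40lg and Tnfsf8 passed in 0 of 12 comparisons in these 2 models. A gene was called at an adjusted p under 0.05 by limma with Benjamini-Hochberg adjustment over all 18193 genes.

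**Figure D1:**
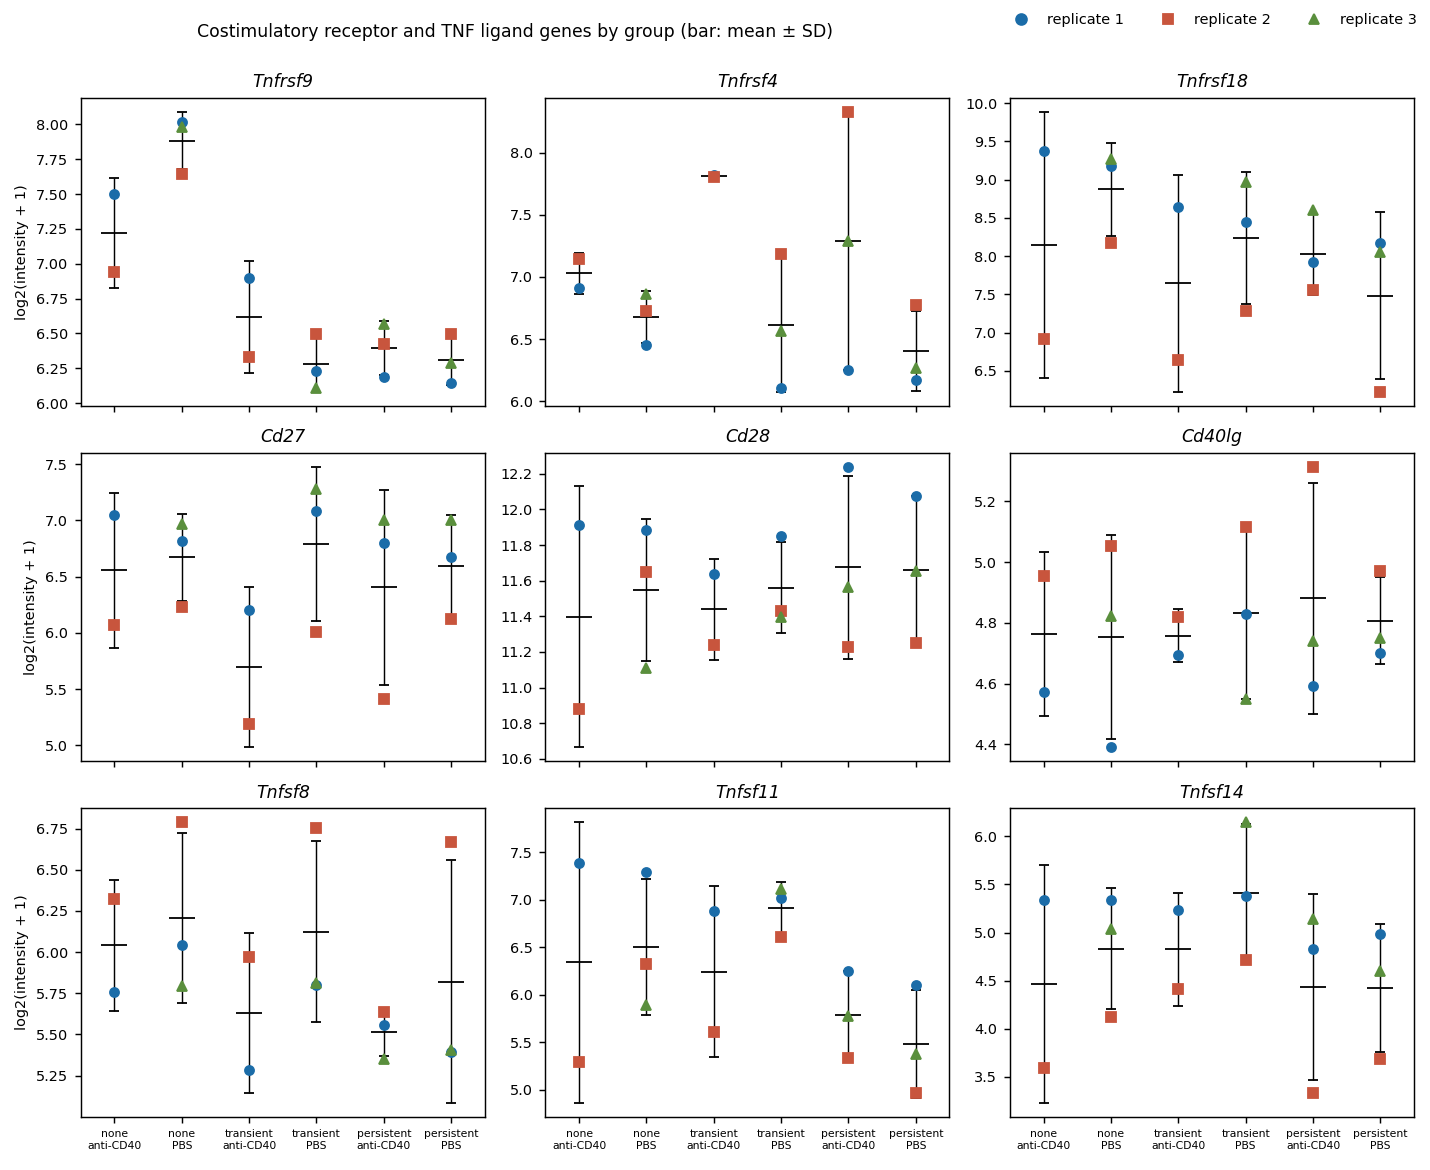
Log2(intensity + 1) of the 9 genes (y axis, 1 panel a gene) on each array, by group from no antigen to persistent antigen, with anti-CD40 left of PBS. Points are arrays with the replicate number in colour, bars are the group mean with its SD (n = 2 or 3), and the no-antigen PBS arrays of Tnfrsf9, at 7.65 to 8.02, lie above all others.

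With PBS, transient antigen against no antigen lowered 1 of the 9 genes, Tnfrsf9, in both models. Among all genes limma called 0.126% without the block (0.033% lower) and 2.89% with it (0.868% lower). Persistent antigen against no antigen lowered 1 gene without the block and 3 with it, Tnfrsf9, Tnfrsf18 and Tnfsf11. For this comparison 3.57% of all genes were called without the block (1.36% lower) and 16.7% with it (6.79% lower). Persistent against transient antigen changed 0 genes without the block (0.929% of all genes called; 1 of the 9 and 11.2% of all genes had an unadjusted p under 0.05 by limma). With the block it lowered 2, Tnfsf11 and Tnfsf14, where 11.4% of all genes were called and 5.44% were lower. The median difference over the 9 genes was 0.01 for transient against no antigen, −0.39 for persistent against no antigen and −0.21 for persistent against transient antigen. Over all genes these medians were 0.03, −0.03 and −0.05. The comparisons share arrays, those against no antigen the same 3 PBS controls.

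With anti-CD40 given in both groups, limma called 0 of the 9 genes without the block in any of the 3 antigen comparisons. Of all genes, 0.572% were called for transient against no antigen, 2.37% for persistent against no antigen and 0.0055% for persistent against transient antigen. With the block Cd27 was lower in transient than in no antigen, where 14% of all genes were called and 3.48% were lower. Tnfrsf9 was lower in persistent than in no antigen, where 16.4% were called and 5.5% were lower. Between persistent and transient antigen 0 of the 9 passed with the block (0.077% of all genes). At an unadjusted p under 0.05 limma had 0, 1 and 0 of the 9 genes in these 3 comparisons without the block and 3, 1 and 2 with it, where all genes had 10.5%, 14.1% and 1.95% without the block and 25.5%, 27.9% and 6.11% with it.

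Anti-CD40 against PBS changed 0 of the 9 genes without the block in any antigen regime. Limma without the block called 0.638% of all genes for anti-CD40 during transient antigen, and 0% without antigen and during persistent antigen. With the block Tnfrsf4 was higher and Cd27 lower with anti-CD40 during transient antigen, where 10.5% of all genes were called, 7.59% higher and 2.92% lower. There were 0 calls among the 9 genes without antigen (0.0055% of all genes) and during persistent antigen (0%). At an unadjusted p under 0.05 limma had 1, 1 and 0 of the 9 genes without the block, for no, transient and persistent antigen, and 1, 4 and 1 with it. The shares of all genes were 1.74%, 9.29% and 0.605% without the block and 5.3%, 20.2% and 2.66% with it. The anti-CD40 effect was also compared between regimes. In these 3 tests 0 of the 9 genes passed in either model. Without the block 0% of all genes were called in each, and with it 3.69% for transient minus none, 0% for persistent minus none and 1.79% for persistent minus transient. At an unadjusted p under 0.05 they had 1, 0 and 0 of the 9 genes without the block and 2 in each with it, against 4.92%, 0.863% and 3.45% of all genes without the block and 16.2%, 3.67% and 11.1% with it.

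**Figure D2:**
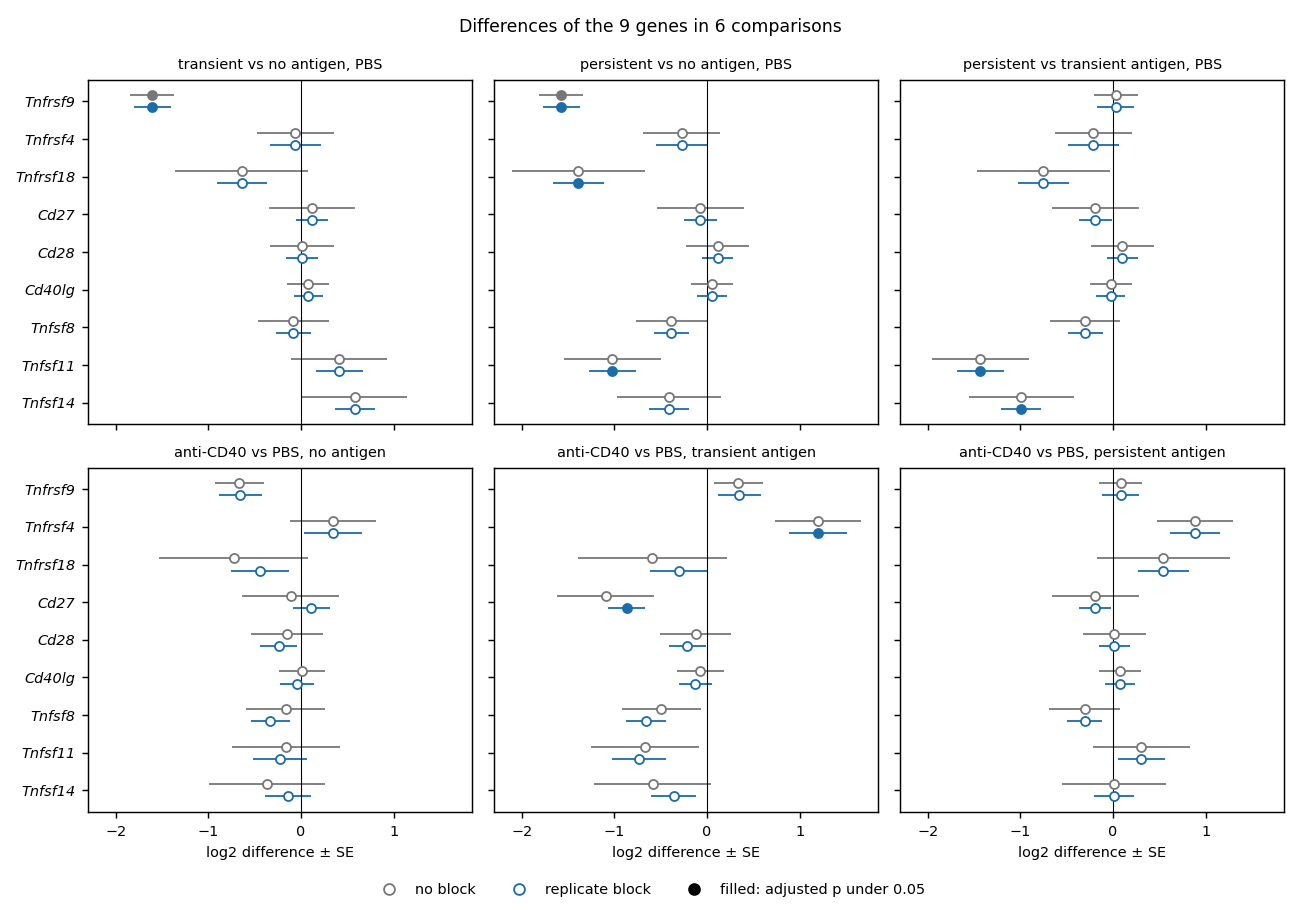
Differences in log2(intensity + 1) of each gene (x axis) with their SE for 3 antigen comparisons with PBS (top) and for anti-CD40 against PBS in 3 antigen regimes (bottom), 1 panel a comparison. Grey is the model without a block and blue the model with the replicate block, and filled points have an adjusted p under 0.05; Tnfrsf9 is filled in both colours for transient and for persistent antigen against no antigen with PBS.

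Tnfrsf9 encodes 4-1BB, a receptor that is absent or low on resting T cells and appears on recently stimulated ones and on regulatory T cells. In transient antigen with PBS the arrays read 6.23, 6.50 and 6.11 in replicates 1, 2 and 3, against 8.02, 7.65 and 7.99 without antigen. The groups did not overlap, with every transient array more than 1 log2 unit lower. The log2 difference was −1.61 ± 0.23 (SE), a 3.04-fold lower level, with limma's adjusted p = 0.0147 without the block and 0.000104 with it. Without the block this call ended when replicate 1 or 3 of either group was left out (adjusted p = 0.089 and 0.072 for no antigen, 0.088 and 0.060 for transient antigen) and when the pair of groups was fitted alone (0.21). With the block it passed in every fit that left out 1 array. Fewer cells with the RNA and less RNA per cell cannot be told apart in sorted bulk samples. The summed intensity of 8 T cell markers was 7454 to 9061 in transient antigen with PBS, 5458 to 6141 in persistent antigen with PBS and 6365 to 7151 without antigen, and its part in these differences was not tested.

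In persistent antigen with PBS the Tnfrsf9 arrays read 6.14, 6.50 and 6.29, again all below the 3 without antigen. The log2 difference was −1.58 ± 0.23, 2.98-fold lower (limma, adjusted p = 0.00169 without the block). It stayed below 0.05 with the block and without any 1 array. Persistent and transient antigen with PBS differed by 0.03 ± 0.23. With anti-CD40 the arrays read 6.18, 6.42 and 6.57 in persistent antigen, 6.90 and 6.33 in transient antigen and 7.50 and 6.94 without antigen. The persistent and the transient arrays both lay below those without antigen. The difference from no antigen was −0.84 ± 0.23 with the block for persistent antigen (limma, adjusted p = 0.0147) and −0.83 ± 0.26 without it (0.137). With the block that call ended without replicate 1 of the no-antigen anti-CD40 group (0.20) or of the persistent one (0.089), and with the mean of the 3 Tnfrsf9 probe sets (0.12). Ms4a1 fell by 0.95 in the same comparison (0.029), and its part was not tested. For transient antigen with anti-CD40 it was −0.60 and passed in neither model (0.494 and 0.116).

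Without antigen, anti-CD40 arrays read below the PBS arrays for Tnfrsf9, at a difference of −0.66 ± 0.26, which passed in neither model (limma, adjusted p = 0.99996 and 0.900). The order of group means ran from 7.88 ± 0.21 (SD, n = 3) in no antigen with PBS, over 7.22 ± 0.39 (n = 2) in no antigen with anti-CD40, to 6.62 ± 0.40 (n = 2) in transient antigen with anti-CD40. The groups without antigen did not overlap with each other or with any other group. The transient arrays with anti-CD40 overlapped with the next group, and persistent antigen with anti-CD40 (6.39 ± 0.19), persistent with PBS (6.31 ± 0.18) and transient with PBS (6.28 ± 0.20; n = 3 each) also overlapped. Of the dimmer probe sets of Tnfrsf9, one with a mean of 4.00 had differences of −1.17 for transient and −0.998 for persistent against no antigen with PBS, and another with a mean of 3.10 had −0.12 and −0.16.

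Tnfrsf18 encodes GITR, which is high on regulatory T cells and rises on stimulated CD4+ T cells. In persistent antigen with PBS it read 8.17, 6.22 and 8.05, against 9.18, 8.17 and 9.26 without antigen, and the groups did not overlap. The level was lower in each replicate number (−1.01, −1.95 and −1.21), where the arrays of replicate 2 come from different array runs. Its mean of −1.39, 2.62-fold lower, had an SE of 0.27 with the block (limma, adjusted p = 0.00112) and 0.72 without it (0.46). With the block it held without any 1 array. On the arrays of replicates 1 and 3 alone it was −1.11 with adjusted p = 0.038 without the block. Transient antigen with PBS read 8.45, 7.29 and 8.97, between the others in each replicate number, and differed from neither at this threshold with the block (−0.64 against no antigen, 0.265; persistent against transient −0.75, 0.087).

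With anti-CD40 the Tnfrsf18 values were 7.92, 7.55 and 8.60 in persistent antigen, 8.65 and 6.64 in transient antigen and 9.38 and 6.92 without antigen, and all of these groups overlapped. The within-number difference of persistent from no antigen turned sign between replicates, at −1.46 in replicate 1 and 0.64 in replicate 2. On replicates 1 and 3 alone, where no antigen with anti-CD40 has 1 array, the blocked difference was −1.26. Group means from 8.87 ± 0.61 in no antigen with PBS to 7.48 ± 1.09 in persistent antigen with PBS (SD, n = 3 each) all overlapped with their neighbours in the order. Of 5 measured regulatory T cell markers, 4 lay above the median probe set on all 16 arrays. Their summed intensity was 639, 618 and 1295 in transient antigen with PBS, 964 to 1245 in persistent antigen with PBS and 940 to 1195 without antigen with PBS. The persistent and no-antigen ranges overlap, whereas 2 of the 3 transient arrays lay below every no-antigen array, and the part of these markers in the Tnfrsf9 and Tnfrsf18 differences was not tested. Within the list Gpr83 fell by 2.17 and Nrp1 rose by 2.64 in persistent against no antigen with PBS (limma, adjusted p = 0.0007 and 0.0088), and with the block Foxp3 fell by 0.61 (0.0038). In transient against no antigen with PBS, Nrp1 rose by 2.22 with the block (0.00033), Ikzf2 fell by 1.51 (0.0138) and Gpr83 fell by 1.17 (0.0022), while 0 of the 5 passed without it.

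Tnfrsf4 encodes OX40, a receptor of recently stimulated CD4+ T cells that prolongs their survival. During transient antigen it read 7.82 and 7.81 with anti-CD40, against 6.10, 7.18 and 6.56 with PBS, and the groups did not overlap. The log2 difference was 1.20 ± 0.31 with the block, 2.29-fold higher (limma, adjusted p = 0.0164), and 1.20 ± 0.46 without it (0.36). In replicate 1 anti-CD40 was higher by 1.72 and in replicate 2 by 0.62. The call ended without replicate 1 of the anti-CD40 group (0.76, adjusted p = 0.43) or of the PBS group (1.09, 0.089). On replicates 1 and 3 alone, where anti-CD40 has 1 array, the blocked difference was 1.74 (0.000782).

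During persistent antigen Tnfrsf4 read 6.25, 8.33 and 7.29 with anti-CD40 and 6.17, 6.77 and 6.27 with PBS. The lowest anti-CD40 array lay among the PBS values, and the difference of 0.88 ± 0.41 did not pass (limma, adjusted p = 1 with and without the block). Without antigen it read 6.91 and 7.15 with anti-CD40 and 6.45, 6.73 and 6.86 with PBS, a difference of 0.35 that passed in neither model although the arrays did not overlap. The mean of the anti-CD40 arrays was thus above that of the PBS arrays in all 3 regimes, and the difference between regimes passed in 0 tests. Antigen with PBS moved Tnfrsf4 little, by −0.06 for transient and −0.27 for persistent against no antigen. The highest group mean was 7.81 ± 0.01 (SD, n = 2) in transient antigen with anti-CD40 and the lowest 6.41 ± 0.32 (n = 3) in persistent antigen with PBS. In the order of groups the means of no antigen with anti-CD40 (7.03 ± 0.17) and no antigen with PBS (6.68 ± 0.21) were the neighbours that did not overlap.

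**Figure D3:**
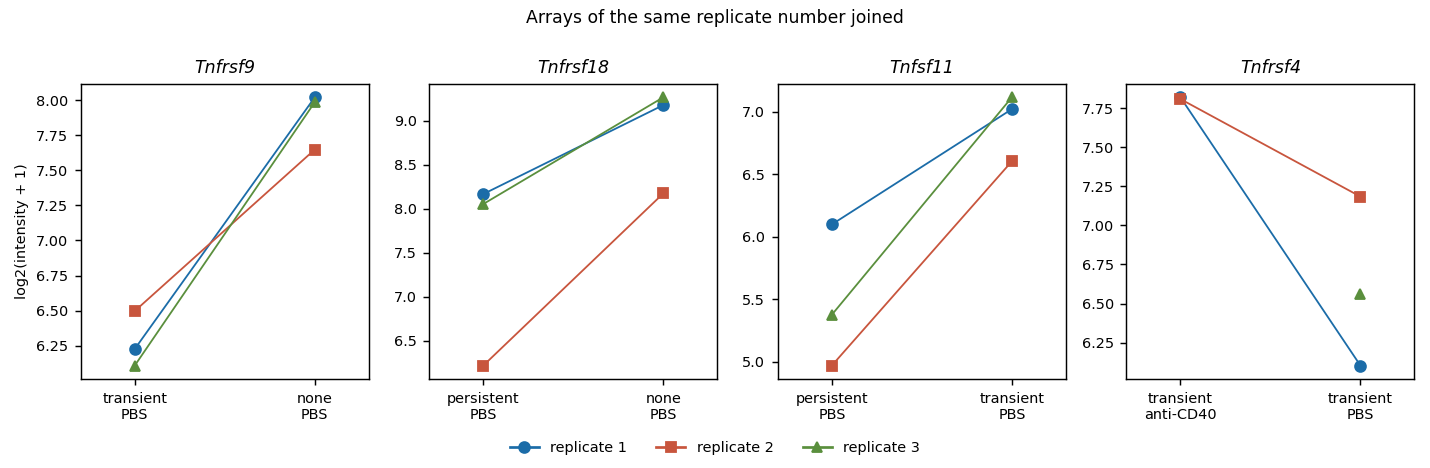
Log2(intensity + 1) (y axis) of Tnfrsf9, Tnfrsf18, Tnfsf11 and Tnfrsf4 in the 2 groups of 1 comparison each, with arrays of the same replicate number joined. All drawn lines of Tnfrsf9 (transient against no antigen), Tnfrsf18 (persistent against no antigen) and Tnfsf11 (persistent against transient), all with PBS, run lower in the group on the left, and those of Tnfrsf4 run higher with anti-CD40 than with PBS during transient antigen.

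Cd27 encodes a receptor of naive and memory T cells that binds CD70 and supports expansion. During transient antigen it read 6.20 and 5.19 with anti-CD40, against 7.08, 6.01 and 7.28 with PBS. The groups overlapped across replicate numbers, and within each number the anti-CD40 array was lower, with a difference of −0.88 in replicate 1 and −0.81 in replicate 2. The log2 difference was −0.87 ± 0.20 with the block, 1.82-fold lower (limma, adjusted p = 0.00708), and −1.09 ± 0.52 without it (0.566). With the block it was lost without either anti-CD40 array (0.079 and 0.069). No antigen with anti-CD40 read 7.05 and 6.07. The same 2 arrays were lower than these within each replicate number, although the groups overlapped, and the difference was −0.86 ± 0.21 with the block (0.00948; 0.707 without it). That call ended without any 1 of the 4 arrays compared, at adjusted p = 0.054 to 0.074, and with the array runs of the labels as the block (0.055). In the same comparison with the block Ms4a1 fell by 1.66 (0.0011), Blnk fell by 0.57 (0.031) and H2-Aa fell by 1.38 (0.0041). The 5 B cell genes summed to 74.9 and 144 in transient antigen with anti-CD40, against 152 and 276 in no antigen with anti-CD40, and their part in the Cd27 difference was not tested. During transient antigen the 8 T cell markers summed to 4869 to 6511 with anti-CD40, against 7454 to 9061 with PBS. With the block 1 of them passed there, Cd5, lower by 0.76 (limma, adjusted p = 0.0121). The part of these markers in the Cd27 difference was not tested either.

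In the remaining groups Cd27 read 6.80, 5.41 and 7.004 in persistent antigen with anti-CD40, 6.67, 6.12 and 7.005 in persistent antigen with PBS and 6.81, 6.23 and 6.97 without antigen with PBS. Persistent against no antigen with PBS differed by −0.07 ± 0.17 with the block. The difference of the anti-CD40 effect on Cd27 between transient and no antigen was −0.98 and did not pass (limma with the block, adjusted p = 0.055). The mean of transient antigen with anti-CD40 was the lowest of the 6, at 5.70 ± 0.71 (SD, n = 2), and that of transient antigen with PBS the highest, at 6.79 ± 0.68 (n = 3).

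Cd28, the receptor that costimulates naive T cells, was the brightest of the 9 probe sets, at 10.88 to 12.24, and was called in 0 comparisons in the 2 models. Its group means lay between 11.40 ± 0.73 (SD, n = 2) in no antigen with anti-CD40 and 11.68 ± 0.51 (n = 3) in persistent antigen with anti-CD40, and all neighbours in the order overlapped. Persistent against no antigen differed by 0.11 ± 0.17 with PBS and by 0.37 ± 0.20 with anti-CD40, both with the block. On replicates 1 and 3 alone, the blocked difference with PBS was larger, at 0.37. A second Cd28 probe set with a mean of 9.37 gave the opposite sign for persistent and transient against no antigen with PBS (−0.32 and −0.29, against 0.11 and 0.01). The probe sets therefore do not settle a direction for Cd28 there.

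Among the 4 ligands, Tnfsf11 had the largest difference between persistent and transient antigen with PBS. It encodes RANKL, through which T cells support dendritic cells that carry RANK. In persistent antigen with PBS it read 6.10, 4.97 and 5.37, against 7.02, 6.60 and 7.11 in transient antigen, and the groups did not overlap. The difference of −1.43, 2.70-fold lower, had an SE of 0.25 with the block (limma, adjusted p = 0.000759) and 0.52 without it (0.275). Against no antigen with PBS, which read 7.29, 6.32 and 5.90, persistent antigen was lower in each replicate number (−1.19, −1.35 and −0.52). Here too the arrays of replicate 2 come from different array runs. The difference of persistent from no antigen was −1.02, 2.03-fold lower, at limma's adjusted p = 0.00719 with the block and 0.45 without it. With the block both differences passed without any 1 array. The second Tnfsf11 probe set, dim at a mean of 2.82, differed by −0.17 from transient and by 0.03 from no antigen. Taking the mean of both probe sets moved the differences to −0.80 and −0.50, and both passed with the block (0.0032 and 0.037). In persistent against transient antigen with PBS the 8 T cell markers summed to 5458 to 6141 against 7454 to 9061. With the block 2 of these markers passed, Cd5 lower by 1.12 and Thy1 by 0.86 (limma, adjusted p = 0.00012 and 0.0103). Their part in the Tnfsf11 and Tnfsf14 differences was not tested.

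With anti-CD40 Tnfsf11 read 6.25, 5.33 and 5.77 in persistent antigen, 6.88 and 5.61 in transient antigen and 7.38 and 5.30 without antigen. These groups overlapped, and persistent against transient antigen was −0.39 with the block (limma, adjusted p = 0.90). The anti-CD40 effect on Tnfsf11 differed by 1.04 between persistent and transient antigen, which did not pass (0.25 with the block). By group mean it was highest in transient antigen with PBS (6.91 ± 0.27) and lowest in persistent antigen with PBS (5.48 ± 0.57; SD, n = 3 each), with overlap between all neighbours in the order.

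Tnfsf14 encodes LIGHT, a ligand of HVEM that costimulates T cells. In persistent antigen with PBS it read 4.98, 3.69 and 4.60, against 5.38, 4.72 and 6.14 in transient antigen. The groups overlapped across numbers, and within each number persistent antigen was lower, with differences of −0.39, −1.03 and −1.55. The difference of −0.99, 1.99-fold lower, had an SE of 0.21 with the block (limma, adjusted p = 0.00423) and 0.56 without it (0.56). It ended without replicate 3 of persistent antigen with PBS (−0.80, 0.054). A second Tnfsf14 probe set differed by −0.14, and the mean of both by −0.56, which passed with the block (0.0067; 0.48 without it). The gene is dim, with 4 of 16 arrays below the median probe set, which limits what can be seen of lower levels. Without antigen it read 5.33, 4.13 and 5.04 with PBS, and the difference of persistent antigen from that, −0.41, did not pass (0.237 with the block). With anti-CD40 the values were 4.83, 3.33 and 5.15 in persistent antigen, 5.24 and 4.41 in transient antigen and 5.34 and 3.59 without antigen.

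Tnfsf8, the ligand of CD30, read between 5.28 and 6.79 and passed in 0 comparisons in the 2 models. Its largest blocked difference was that of anti-CD40 against PBS during transient antigen, where it read 5.28 and 5.97 with anti-CD40 and 5.80, 6.76 and 5.81 with PBS. That difference was −0.66 ± 0.21 (limma with the block, adjusted p = 0.058). It passed with the block and cyclic loess (0.045) or the mean of probe sets (0.049), without replicate 2 of persistent antigen with anti-CD40 (0.0167) and without replicate 2 of persistent antigen with PBS (0.049). Tnfsf8 has 1 probe set, so taking the mean left its difference at −0.66 and moved only the test through the other genes. In persistent antigen with PBS it read 5.39, 6.67 and 5.40, against 6.04, 6.79 and 5.80 without antigen. Here the array of replicate 2 was the highest in both groups. The difference of −0.39 did not pass (0.196 with the block).

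Cd40lg, through which a helper T cell stimulates CD40 on its partner, stayed within 4.39 to 5.31 on all 16 arrays. Its 6 group means lay between 4.75 ± 0.34 in no antigen with PBS and 4.88 ± 0.38 in persistent antigen with anti-CD40 (SD, n = 3 each). Its blocked differences in the 9 pairwise comparisons lay between −0.13 and 0.18, each with an SE of 0.16 to 0.19. The probe set lies close to the median probe set, so the gene is dim, which may hide a lower level. That median is not the lowest reading possible, as Tnfsf14 went down to 3.33.

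In 7 of the 9 genes replicate number took more of the variance than group did, the exceptions being Tnfrsf9 and Tnfrsf4. Of the variance over 16 arrays, group accounted for 90.6% in Tnfrsf9 and 51.6% in Tnfrsf4, and for 4.22% (Cd40lg) to 42.8% (Tnfsf11) in the other 7 genes. Replicate number, fitted after group, took 0.557% in Tnfrsf9, 23.8% in Tnfrsf4 and 43.2% to 71.1% in the other 7. Replicate 2 read below replicate 1 in Tnfrsf18 (−1.49), Tnfsf14 (−1.20), Tnfsf11 (−1.13), Cd27 (−0.93) and Cd28 (−0.65), and above it in Tnfsf8 (0.72), Tnfrsf4 (0.71) and Cd40lg (0.41). Over all genes the median of this difference was 0.01 and its median size 0.28. Replicate 3 minus replicate 1 was −0.76 in Tnfsf11, −0.60 in Cd28, 0.35 in Tnfrsf4 and 0.21 in Cd27. It was 0.11 in Tnfrsf18, 0.08 in Tnfsf14, 0.05 in Cd40lg, −0.02 in Tnfrsf9 and −0.13 in Tnfsf8. Eif2s3y read low in both replicate 2 (2.61 to 3.09) and replicate 3 (2.63 to 2.85). The labels do not say what the numbers stand for, and the part of the animals' sex in these differences was not tested.

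**Figure D4:**
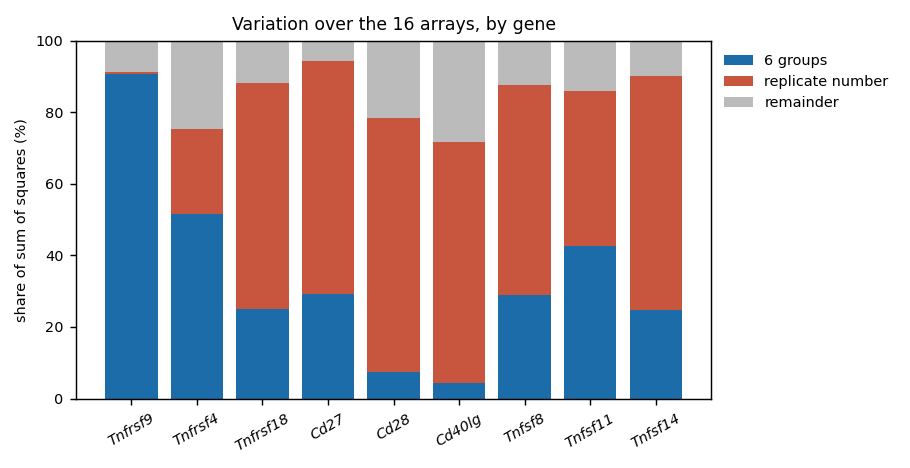
Share of the variance of each gene over 16 arrays (percent, y axis) that belongs to group, to replicate number fitted after group, and to the remainder. Group takes 90.6% in Tnfrsf9, and replicate number takes more than group in Tnfrsf18, Cd27, Cd28, Cd40lg, Tnfsf8, Tnfsf11 and Tnfsf14.

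Likeness between genes was described by Pearson's r over the 16 arrays after the mean of each replicate number was subtracted, so the points share groups and batches of arrays. Replicate 3 lacks no antigen and transient antigen with anti-CD40. Its mean therefore covers a different mix of groups, and subtracting it does not cleanly separate replicate from group. Among the 9 genes the highest values were 0.85 for Tnfsf11 with Tnfsf14, 0.79 for Cd27 with Tnfsf8, 0.72 for Tnfrsf9 with Tnfrsf18 and 0.70 for Tnfrsf18 with Tnfsf11. The neighbours Tnfrsf4 and Tnfrsf18 had 0.22, and Tnfrsf4 with Cd27 the lowest, −0.75. Among 10626 other genes above the median probe set, the 2 most like each gene were Eno3 (0.93) and Cd72 (0.90) for Tnfrsf9, Kyat3 (0.93) and Smyd2 (0.92) for Tnfrsf4, and Tnfaip3 (0.90) and Klhl25 (0.90) for Tnfrsf18. For Cd27 they were Fibin (0.87) and Atp11b (0.85), for Cd28 Rap1a (0.83) and Jak2 (0.82), and for Cd40lg Cntnap2 (0.75) and Sult5a1 (0.73). For Tnfsf8 they were Zzef1 (0.93) and Rab3gap1 (0.89), for Tnfsf11 Abcb9 (0.93) and Dnmt3a (0.93), and for Tnfsf14 Slc20a1 (0.91) and H2-DMa (0.90).

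Other genes of the same pathways were read from 4 lists in persistent against no antigen with PBS, where 1.36% of all genes were lower and 3.57% called without the block, and 6.79% lower and 16.7% called with it. Of 9 measured other TNF ligands, 2 fell and 0 rose without the block, and 4 fell and 0 rose with it, with a median of −0.59 against −0.03 over all genes. Lta, a subunit of lymphotoxin, fell by 1.17 ± 0.20 (limma, adjusted p = 0.0048) and Tnfsf4, the ligand of OX40, by 0.76 ± 0.19 (0.035). Ltb, the other lymphotoxin subunit, fell by 1.13 with the block (0.0004; 0.24 without it). Of 19 measured other TNF receptors 1 fell and 0 rose without the block, and 2 fell and 2 rose with it, with a median of −0.09. In both models Tnfrsf25 (DR3, a costimulatory receptor of T cells) fell by 2.20 ± 0.27 (0.0007 without the block), and it also fell by 2.22 ± 0.31 with anti-CD40 in both groups (0.0032).

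Of 23 measured TRAF and NF-kB genes, 3 fell and 0 rose without the block in persistent against no antigen with PBS, and 8 fell and 4 rose with it, with a median of −0.17 (all genes as above). Birc3, a ubiquitin ligase that TRAF adaptors recruit, fell by 1.09 ± 0.25 (limma, adjusted p = 0.024). Tnfaip3 (A20), an NF-kB target that restrains NF-kB, fell by 0.99 ± 0.23 (0.025), and the NF-kB subunit gene Relb by 0.93 ± 0.24 (0.047). Siva1, whose product binds CD27, rose by 1.46 ± 0.22 with the block (6.8e-05; 0.27 without it), and Nfkbia, the inhibitor of NF-kB that NF-kB induces, fell by 1.36 ± 0.15 (1.7e-06; 0.34 without it). Of 17 measured genes of the CD28 family and its signalling, 0 passed without the block and 3 rose and 1 fell with it, 4 of 17 beside 16.7% of all genes, with a median of −0.04. The 3 were Ctla4, the inhibitory receptor that competes with CD28, at 1.84 ± 0.21 (2.6e-06), Icos, an inducible costimulator, at 0.99 ± 0.20 (0.0014), and the kinase gene Akt1 at 0.98 ± 0.18 (0.00043). The one that fell was Pik3r1, a regulatory subunit of PI3 kinase, which fell by 0.59 ± 0.18 (0.033).

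For transient against no antigen with PBS these 4 lists had 0 calls without the block, and with it 2 receptors passed (1 in each direction), 0 ligands, 1 TRAF and NF-kB gene (higher) and 2 CD28 family genes (higher). Of all genes 0.126% were called there without the block and 2.89% with it. Persistent against transient antigen with PBS lowered 1 receptor, 1 ligand and 0 of the others without the block, Tnfrsf25 by 1.28 ± 0.27 (limma, adjusted p = 0.046) and Lta by 1.04 ± 0.20 (0.026). Without the block 0.929% of all genes were called in this comparison. With the block 4 of 9 ligands were lower and 1 higher, 1 of 19 receptors was lower, 5 of 23 TRAF and NF-kB genes were lower and 2 higher, and 2 of 17 CD28 family genes were lower and 1 higher, where 11.4% of all genes were called and 5.44% were lower. Among these Ltb fell by 1.17 ± 0.20 (0.00054), Nfkbia fell by 0.89 ± 0.15 (0.00038) and Siva1 rose by 1.18 ± 0.22 (0.0011). Il2, the growth factor gene that CD28 raises, fell by 1.03 ± 0.20 (0.0022), and rose by 0.99 ± 0.21 in transient against no antigen with PBS (0.0103). Anti-CD40 against PBS gave 0 calls in the 4 lists without the block in every regime. Of all genes 0.638% were called during transient antigen and 0% in the other regimes. During transient antigen with the block 1 ligand, 0 receptors, 1 TRAF and NF-kB gene and 1 CD28 family gene were higher and 1, 1, 1 and 0 lower, where 7.59% of all genes were higher and 2.92% lower. Siva1 rose by 1.59 ± 0.25 (limma, adjusted p = 0.0003), Akt1 rose by 0.75 ± 0.20 (0.0194), the NF-kB kinase gene Ikbkb fell by 0.85 ± 0.18 (0.0046) and Tnfrsf14 (HVEM) fell by 0.50 ± 0.16 (0.046). Tnfrsf14 is dim, at 3.66 and 3.81 with anti-CD40 and 4.21 to 4.31 with PBS, all below the median probe set (4.37). Fasl, the death ligand, fell by 1.17 ± 0.26 (0.0062) and Tnfsf9, the ligand of 4-1BB, rose by 0.83 ± 0.20 (0.0113).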

How the data were processed

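Sorted AND T cells gave RNA for 16 Affymetrix mouse arrays with 45101 probe sets. Per the labels' protocols it was extracted with Trizol and amplified 2 times before labelling. The authors computed the deposited intensities with RMA, per the submitters' processing notes, whose version is not given in the sources used here. They are on a linear scale and were used as log2(intensity + 1), without further normalization. The number of arrays limits the precision. Array medians were 18.2 to 21.3, and no 2 arrays of a group correlated above 0.987.

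Of the probe sets 64 are array controls and were left out, 35890 were found among the annotated ones and 34945 had a single symbol and gave 18193 genes. Another 932 had several symbols. Each gene is its probe set with the highest mean. The 9 genes and all lists were chosen with earlier results of these data known. The genes named beside the 9 are the 2 most alike to each and, from each list, up to 4 with the largest difference past the threshold in a comparison and model; marker genes stand beside the results they move with.

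Limma 3.58.1 in R 4.3.3 with the data.table package (version 1.17.8) fitted 6 group means over all arrays with an intensity trend, was tested on simulated data, and called an adjusted p under 0.05 in 12 comparisons. Deviations from group means correlated at 0.48 to 0.81 between arrays of the same replicate number. Between different numbers they correlated at −0.81 to 0.60, with a median of −0.53, so the ranges overlap. Deviations cancel within each group, which pushes the values between different numbers down, so these add no separate support. The basis for treating numbers as pairs is the data, not the labels. A fit with the number as a fixed block stands beside the other. Alternatives were the runs of array numbers in the labels as a block, groups fitted alone, cyclic loess, a constant of 16, dim genes left out, the mean of probe sets, no trend, and each array left out. Added after seeing the data were replicates 1 and 3 only and several of these with the block. A group left with 1 array is assumed to vary like the others.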

Additional observations from a re-analysis of the deposited data

How the results depend on the processing

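The counts below are of the 9 genes called by limma, which were 1 each for transient and for persistent against no antigen with PBS and 0 in the other 10 comparisons. With the replicate block, which uses the pairing of arrays, they became 3 for persistent against no antigen and 2 for persistent against transient antigen with PBS, 1 each for transient and for persistent against no antigen with anti-CD40, and 2 for anti-CD40 against PBS during transient antigen. The array runs as a block and the replicate block with a constant of 16 gave counts of 3, 2, 1, 1 and 2 as well, but with the array runs the gene for transient against no antigen with anti-CD40 was Tnfrsf9 (−0.86, limma's adjusted p = 0.034) in place of Cd27. With the groups compared alone, transient against no antigen with PBS had 0, and on replicates 1 and 3 without a block persistent against no antigen with PBS had 2. With the block and cyclic loess the 5 counts were 3, 2, 2, 1 and 3. With the block and the mean of probe sets they were 3, 2, 1, 0 and 3. In both of these, the difference of the anti-CD40 effect between transient and no antigen had 1. The mean of probe sets leaves the values of genes with 1 probe set, such as Cd27 and Tnfsf8, as they were. With the block on replicates 1 and 3 they were 4, 2, 1, 2 and 2. Leaving out each array in turn gave 0 to 1 for transient and 1 to 1 for persistent against no antigen with PBS, without the block. With the block it gave 1 to 1 for transient and 3 to 3 for persistent against no antigen and 1 to 3 for persistent against transient antigen, all with PBS. It gave 0 to 1 for each of the comparisons with no antigen under anti-CD40, 0 to 3 for anti-CD40 during transient antigen and 0 to 1 for its difference from no antigen. The block changed no other count of the 9 genes. The other alternatives (cyclic loess, the constant of 16, dim genes left out, the mean of probe sets and no trend, all without the block) left all 12 counts as they were. The share of all genes called was computed only for all arrays without a block and with the replicate block. For the other fits it is not known whether these counts moved with all genes. Dim probe sets such as those of Tnfsf14 and Cd40lg may limit what can be seen of lower levels.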
